A study of Mus musculus with 12 samples.

Results

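CD244-positive invariant natural killer T (iNKT) cells from the lung were compared with CD244-positive iNKT cells from the thymus. Of 12 libraries in the series, 6 belong to this comparison, 3 from each tissue, and they were chosen by their labels. The donors were mice aged 6 weeks, and no strain, genotype or treatment is named in the labels. Both groups were sorted alike, as TCRbeta+ NK1.1+ CXCR6+ CD244+ cells that bound the CD1d tetramer, and 100 cells went into each library. The series names the CD244+ CXCR6+ population the C2 subset. The C1 subset is its CD244- CXCR6+ counterpart from the same tissues, which gave the remaining 6 libraries and is used here for reference. Replicates are called separate library preparations in the labels, with no animal named, so p-values measure only how far these preparations vary, and that variation may be technical. Sorted cells were lysed and their RNA was tagged with molecular barcodes, so that a level counts RNA molecules. Each library was rescaled to a total of 10000, and every level below is in molecules per 10000 of its library. Levels are given for thymus libraries 1, 2 and 3 and then for lung libraries 1, 2 and 3.

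iNKT cells are T lymphocytes with a near-invariant T cell receptor that recognises lipids held by CD1d. They mature in the thymus under the transcription factor PLZF, acquire receptors of natural killer (NK) cells, and settle in tissues such as the lung and liver with few of them recirculating. CD244 (2B4) is a receptor of the SLAM family that is found on NK cells and cytotoxic T cells. Tissue T cells are known for high levels of fast-acting transcription factors such as FOS, JUN and NR4A, which are induced within minutes by receptor signals and by stress.

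The thymus libraries held 56615 to 71789 molecules and the lung libraries 42520 to 51436, so 3 molecules in a library corresponded to 0.418 to 0.530 and 0.583 to 0.706 per 10000. A gene with 0 molecules in all 3 thymus libraries may have been present at up to 0.156 per 10000, the level of 3 molecules over the group, and folds against such a gene are given as lower bounds at that level. Bounds and intervals cover counting error only. In thymus library 1 and lung library 2 the low values included fractions of a molecule, so molecule numbers there are approximate. The lung libraries differed among themselves more than the thymus libraries did, with a chi-square per degree of freedom of 1.65 to 1.70 against 1.10 to 1.15. The sort genes did not all follow the gate. Cxcr6 was at 4.32, 4.26 and 7.60 in the thymus and at 3.07, 0.235 and 0.194 in the lung, so that lung libraries 2 and 3 held almost none. Klrb1c, which encodes NK1.1, was at 8.89, 8.93 and 8.71 and at 2.56, 2.12 and 1.75. Cd244 was too low to test, at 1.11, 0.158 and 0.707 in the thymus and 0.205, 0.235 and 0 in the lung, and had 0 molecules in all 6 CD244-negative libraries. The list of T cell receptor complex and co-receptor genes had summed levels of 53.5, 53.8 and 50.1 in the thymus and 47.9, 33.6 and 35.5 in the lung. Of its 23 genes, 20 were in the table, and the receptor chain genes Trac, Trbc1 and Trbc2 were not. It also holds other T cell surface and signalling genes, such as Ptprc, Thy1 and Lck.

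Macrophage markers set the lung CD244-positive libraries apart from the other 9. The summed level of the macrophage list was 24.4, 24.7 and 20.4 in the thymus and 176, 263 and 283 in the lung libraries. Of the 35 listed genes, 24 had 0 molecules in all thymus CD244-positive libraries, so the sum there came from the remaining members. The summed level of the MHC class II genes was 0.557, 0 and 0.177 and 50.1, 72.8 and 129.6 in the same order. Lung CD244-negative libraries had sums of 24.2 to 31.5 for macrophage markers and 0.332 to 0.673 for MHC class II. The part of these sums in the differences described below was not tested. In RNA pooled from sorted cells, fewer cells of a type and less RNA per cell cannot be told apart. Some markers of other cells were scarce. No B cell, stromal or endothelial, or mast cell marker reached the level needed for a test. The neutrophil genes S100a8, S100a9 and Retnlg had 0 molecules in all 12 libraries. Dendritic cell markers summed to 0.418, 0.315 and 0.883 in the thymus and 3.68, 4.47 and 6.61 in the lung. The 1 tested, Naaa, was higher in the lung and reached the level for a test through lung libraries only. So did Pf4, of the erythroid and platelet list, and Cbr2, 1 of 2 lung epithelial markers tested. Of 7 NK cell markers tested 1 was higher and 1 lower, against 11.3% and 6.43% of all genes tested. Of 3 innate lymphoid cell markers tested, 2 were lower. Scgb1a1, a secreted product of airway club cells, had 0 in each thymus library and 0.409, 2.35 and 0.778 in the lung, and was at 1.53 ± 0.427 (SD, n = 3) in lung CD244-negative cells.

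**Figure D1:**
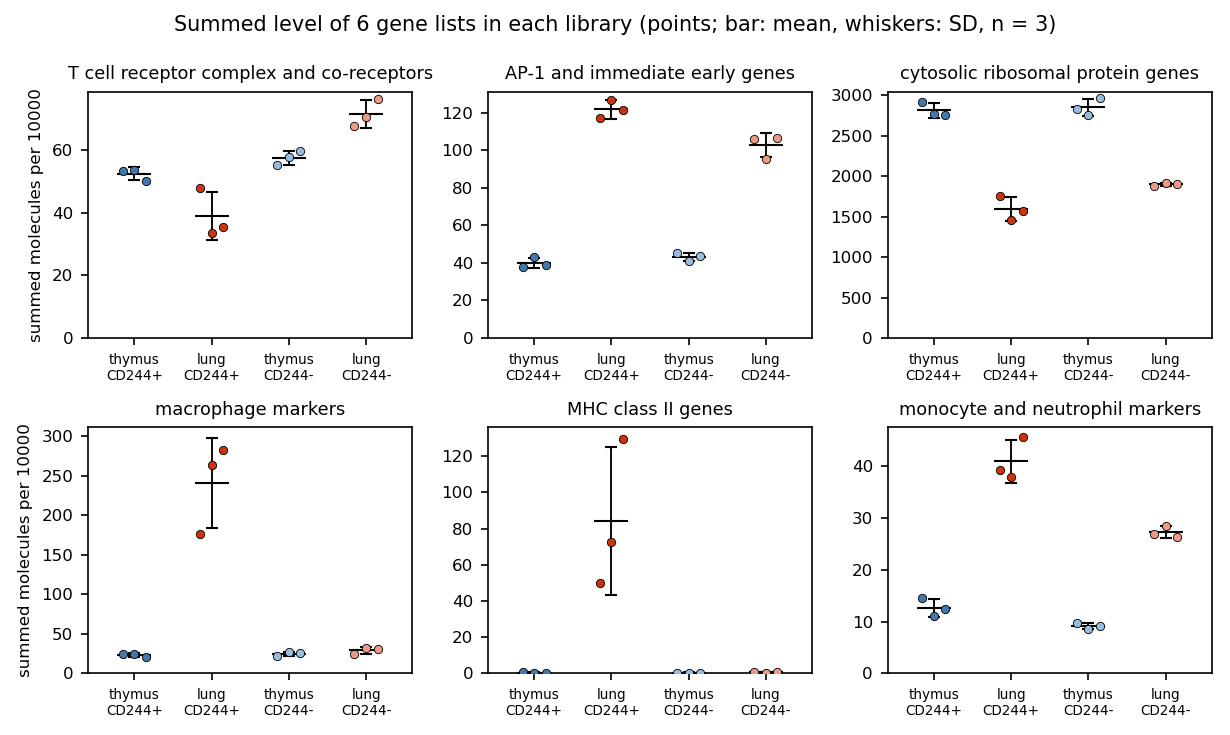
Summed level of 6 gene lists in each of the 12 libraries, in molecules per 10000, on axes that start at 0. Points are libraries, bars are group means and whiskers 1 SD (n = 3), ending at 0 where the SD is larger than the mean. Macrophage and MHC class II sums are high in the 3 lung CD244-positive libraries alone, immediate early genes are high in both lung groups, and ribosomal protein genes are low in both lung groups.

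Between tissues, 381 genes were higher and 217 lower in lung than in thymus CD244-positive cells, of 3373 genes tested (limma, Benjamini-Hochberg adjusted p under 0.05). These are 11.3% and 6.43% of the genes tested, the shares against which the counts of list members below stand. At an unadjusted p under 0.05 there were 937 genes. The levels of the 2 tissues did not overlap for 1057 genes, 31.3% of those tested, including 584 of the 598 called. For a called gene, lack of overlap therefore adds little. The median log2 difference over all genes tested was 0.01. Of the 381 higher genes, 109 had 0 molecules in all thymus CD244-positive libraries, and 72, or 18.9%, had 0 molecules in all 9 other libraries of the series. Genes above 0.5 per 10000 in at least 3 of the 6 libraries were tested, and 241 of them reached that level in lung libraries only and 82 in thymus libraries only. For a gene that reached it in 1 tissue only, the direction of the difference follows from the filter.

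**Figure D2:**
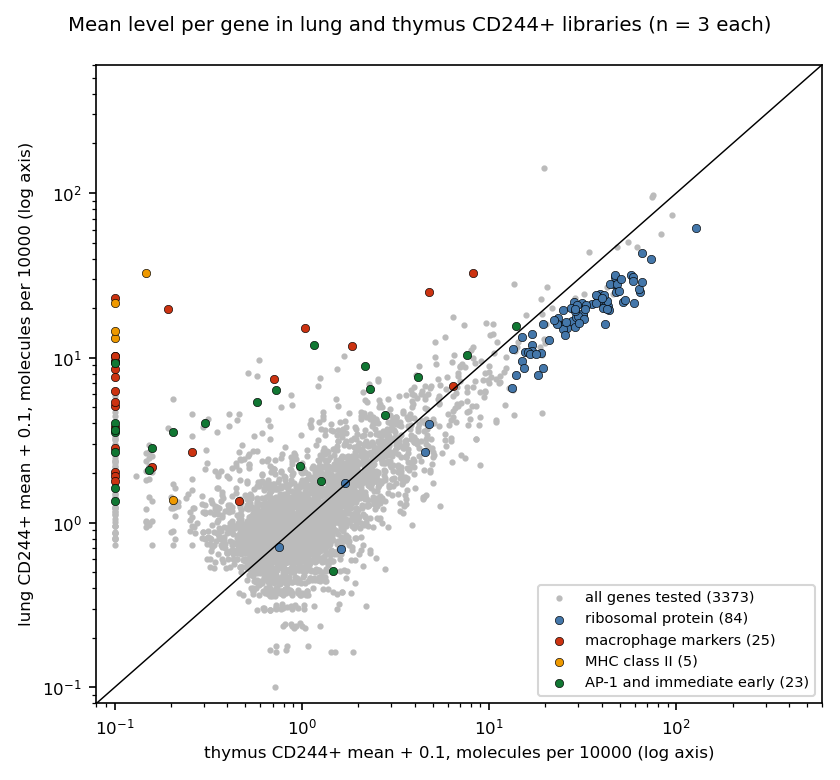
Mean level of each of the 3373 genes tested in thymus (horizontal) and lung (vertical) CD244-positive libraries, n = 3 each, in molecules per 10000 with 0.1 added, on log axes. The line marks equal levels; nearly all ribosomal protein genes lie below it, and macrophage, MHC class II and most immediate early genes lie above it.

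AP-1 and immediate early genes rose in the lung libraries. Of 32 listed AP-1 and immediate early genes in the table, 23 were tested, 18 were higher and 1 was lower in the lung, with a median log2 difference of 2.11 against 0.01 over all genes. The summed level of the list was 37.6, 43.0 and 39.0 in the thymus and 117, 127 and 122 in the lung libraries. Of the 23, 11 reached the tested level through lung libraries only, so their direction follows from the filter. The list was written with earlier results of these libraries known.

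Stretches of 150 bases before the RefSeq transcription start (GRCm38.p6, mm10) are shown for 8 genes that rose in the lung, 7 of them chosen because they hold letters that were searched, and Jun because it holds none. The letters searched were TGACG (the core of the cAMP response element), TGACGTCA (the full element), TGAGTCA (the AP-1 element), GGGACTTTC and GGGAATTTC (parts of NF-kappaB elements), and CCATATTAG (part of a CArG box), on both strands. Capitals mark each match. TGACG lies inside TGACGTCA, and it was added to the search after the data were seen.
Fos (chr12:85473740-85473889, plus strand): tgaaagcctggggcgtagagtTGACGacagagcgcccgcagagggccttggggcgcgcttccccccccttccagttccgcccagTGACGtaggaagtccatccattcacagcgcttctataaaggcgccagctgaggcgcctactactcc
Fosb (chr7:19310046-19310195, minus strand): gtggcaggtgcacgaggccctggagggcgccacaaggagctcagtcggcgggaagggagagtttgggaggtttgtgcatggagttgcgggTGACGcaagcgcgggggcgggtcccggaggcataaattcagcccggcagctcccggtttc
Atf3 (chr1:191183334-191183483, minus strand): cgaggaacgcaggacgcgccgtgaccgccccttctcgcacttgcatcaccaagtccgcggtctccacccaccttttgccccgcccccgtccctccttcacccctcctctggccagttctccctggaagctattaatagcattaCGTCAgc
Junb (chr8:84978749-84978898, minus strand): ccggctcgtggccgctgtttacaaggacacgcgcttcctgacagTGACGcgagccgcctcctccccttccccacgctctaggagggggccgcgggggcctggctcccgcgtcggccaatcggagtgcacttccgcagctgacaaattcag
Jun (chr4:95052223-95052372, minus strand): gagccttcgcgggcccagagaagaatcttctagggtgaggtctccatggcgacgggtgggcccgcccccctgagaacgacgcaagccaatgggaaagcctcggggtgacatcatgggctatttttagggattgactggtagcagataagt
Nr4a1 (chr15:101266696-101266845, plus strand): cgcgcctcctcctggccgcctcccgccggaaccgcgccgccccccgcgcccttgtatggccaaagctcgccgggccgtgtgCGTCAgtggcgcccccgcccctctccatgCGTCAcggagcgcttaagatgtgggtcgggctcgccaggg
Dusp1 (chr17:26508473-26508622, minus strand): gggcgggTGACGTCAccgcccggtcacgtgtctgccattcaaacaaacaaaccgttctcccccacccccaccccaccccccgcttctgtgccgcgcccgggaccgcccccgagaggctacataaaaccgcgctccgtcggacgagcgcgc
Tnfaip3 (chr10:19015411-19015560, minus strand): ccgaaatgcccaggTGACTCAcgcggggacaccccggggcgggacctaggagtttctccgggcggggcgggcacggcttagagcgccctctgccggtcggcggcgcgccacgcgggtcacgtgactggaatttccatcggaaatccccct
Fos and Nr4a1 each hold TGACG at 2 places in the window, Dusp1 holds the full palindrome, and Tnfaip3 holds the AP-1 letters. Among the members of the immediate early, cAMP response and NF-kappaB lists that were called higher, 22 of 26 had a RefSeq promoter entry. The lower member, Myc, was not counted. Within 250 bases before the start, 11 of these 22 held TGACG, against 34.0% of the promoters of genes tested and 19.8% of all promoters. TGACGTCA was in 0 of the 22, against 3.29% of the promoters of genes tested and 1.77% of all promoters (Dusp1 is listed elsewhere, with the phosphatases). TGAGTCA was in 2 of the 22, Nfkbie and Tnfaip3, against 3.92% for genes tested and 5.16% of all promoters. The NF-kappaB letters were in 1 of the 22, Nfkbia, against 0.785% for genes tested and 0.618% of all promoters. CCATATTAG was in 0 of the 22, against 0.0747% for genes tested and 0.118% of all promoters. Within the shorter window of 150 bases, 11 of the 22 held no letters searched at any listed start, Jun, Fosl2, Jund, Klf6 and Zfp36 among them, and of the 2 listed starts of Tnfaip3 1 held a match. A match describes letters and not a bound site.

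The FOS and JUN genes encode the paired subunits of the AP-1 transcription factor. Fos (chr12:85473890-85477273) had 0 in each thymus library and was at 9.01, 9.64 and 9.14 in the lung libraries, a tight rise of at least 59.1-fold (log2 difference 4.29 ± 0.29 SE, limma adjusted p = 2.13e-13). Jun had 0 in each thymus library and 3.07, 3.76 and 4.86 in the lung, at least 25.1-fold higher (log2 difference 3.12 ± 0.32 SE, limma adjusted p = 3.02e-09). Fosb, a FOS relative, had 0 in each thymus library and 2.66, 3.76 and 3.89 in the lung, at least 21.9-fold higher (limma adjusted p = 1.1e-08). None of these 3 overlapped between tissues, and all 3 reached the tested level through lung libraries only, so their direction follows from the filter. Junb (chr8:84974484-84978718), whose product often restrains JUN activity, was present in both tissues, at 0.696, 1.26 and 1.24 in the thymus and 9.82, 11.99 and 13.6 in the lung (log2 difference 2.99 ± 0.26 SE, limma adjusted p = 4.59e-11). Fosl2, a slower FOS relative, was at 0.139, 0.473 and 0 and 4.71, 4.70 and 2.33 (log2 difference 2.65 ± 0.34 SE, limma adjusted p = 2.11e-07). Jund, the constitutive JUN gene, moved least of the JUN genes tested, from 5.01, 3.63 and 3.53 to 6.34, 6.82 and 9.33 (log2 difference 0.81 ± 0.23 SE, limma adjusted p = 0.0104), a call lost without thymus library 2 or 3 or lung library 3 (limma adjusted p = 0.0539 to 0.0783). The Jund call was also lost on the totals as deposited, with quantile normalization, with thinned molecules and without the trend and robust options of limma. Every lung library was above every thymus library for each of the 6 AP-1 genes named here. Of all genes called, 584 of 598 did not overlap between tissues. Fosl2 too reached the tested level through lung libraries only.

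Stress and receptor-induced transcription factors followed the same direction. Atf3, a repressor induced by stress, had 0 in each thymus library and 3.07, 2.59 and 5.05 in the lung, at least 23.3-fold higher (limma adjusted p = 1.57e-08). Egr1, a zinc-finger factor induced by ERK signalling, was at 0.139, 0 and 0.177 and 2.25, 3.998 and 4.08 (log2 difference 2.68 ± 0.33 SE, limma adjusted p = 1.05e-07). The 3 orphan nuclear receptors of the NR4A family, which report T cell receptor signals, rose together. Nr4a1 (Nur77) went from 0, 0.158 and 0 to 1.02, 2.82 and 2.14 (log2 difference 2.11 ± 0.36 SE, limma adjusted p = 3.64e-05). Nr4a3 had 0 in each thymus library and 3.68, 2.35 and 1.75 in the lung, at least 16.6-fold higher, and Nr4a2 was at least 8.06-fold higher, both with 0 molecules in the thymus. Klf6 rose from 1.53, 2.21 and 2.47 to 8.80, 9.17 and 8.36 and Zfp36, which encodes an mRNA decay factor (tristetraprolin), from 0.836, 0.158 and 0.883 to 5.73, 5.88 and 7.19. Btg1, an antiproliferative gene of the list, was at 13.7, 14.0 and 14.0 in the thymus and 15.6, 15.99 and 14.97 in the lung and did not pass the test (limma adjusted p = 0.585). Myc was the 1 lower member, at 0.975, 1.89 and 1.24 and 0.205, 0.235 and 0.778 (limma adjusted p = 0.0296), a call lost without thymus library 2 or 3 or lung library 1 or 2 (limma adjusted p = 0.0674 to 0.186). The levels of the genes of this paragraph did not overlap between tissues, Btg1 included, as was so for 31.3% of all genes tested. Atf3, Egr1, Nr4a1, Nr4a2 and Nr4a3 reached the tested level through lung libraries only, so their direction follows from the filter.

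Several genes whose products restrain signalling rose. Of 8 dual-specificity phosphatase and RGS genes tested, 3 were higher (Dusp1, Rgs1 and Rgs2), with a median log2 difference of -0.03. Dusp1 encodes a phosphatase that switches off MAP kinases. It was at 0.418, 0 and 1.06 in the thymus and 10.03, 8.94 and 9.72 in the lung libraries, with no overlap (log2 difference 3.49 ± 0.32 SE, limma adjusted p = 2.18e-10). Tnfaip3 encodes A20, an inhibitor of NF-kappaB, and went from 1.11, 0.315 and 0 to 6.75, 10.3 and 6.03 (log2 difference 3.20 ± 0.34 SE, limma adjusted p = 5.51e-09). Nfkbia, which encodes the inhibitor IkappaB-alpha, went from 2.51, 1.42 and 2.65 to 6.14, 9.64 and 4.67 (log2 difference 1.42 ± 0.27 SE, limma adjusted p = 0.000177). Of 17 NF-kappaB pathway genes tested, 5 were higher, namely these 2 inhibitors, Nfkbiz, Nfkbie and Rel. For this list and the phosphatase and RGS list, the share higher over all genes tested was 11.3%. Of the 17, 4 reached the tested level through lung libraries only. The call for Nfkbie was lost without thymus library 1 (limma adjusted p = 0.0655), and that for Rel without thymus library 2 or lung library 2 or 3 (limma adjusted p = 0.0557 to 0.117). Socs3, an inhibitor of cytokine receptor signalling, had 0 in each thymus library and 2.25, 3.53 and 2.92 in the lung, at least 18.4-fold higher. Socs3 reached the tested level through lung libraries only, so its direction follows from the filter. It differed between subsets (interaction 2.40 ± 0.52 SE, limma adjusted p = 0.00152), as did the sums in the 2 lung groups (macrophage sums 176 to 283 and 24.2 to 31.5), whose part in it was not tested.

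Listed genes of the cAMP response, which include members of the pathway as well as targets, moved in part. Of 14 tested, 7 were higher, against 11.3% of all genes tested. The median log2 difference of the 14 was 0.42, which was 0.17 without thymus library 1 and 0.28 without lung library 2. Of the 7, 4 were already counted among the immediate early genes (Crem, Nr4a1, Nr4a2 and Fosl2), and 3 of the 14 reached the tested level through lung libraries only. Crem, a cAMP-responsive transcription factor gene, was at 0.418, 0.473 and 0.530 in the thymus and 5.53, 6.11 and 4.28 in the lung (log2 difference 2.56 ± 0.29 SE, limma adjusted p = 3.07e-08). Vps37b, which encodes a subunit of the endosomal sorting complex ESCRT-I, was at 1.11, 2.05 and 1.59 and 11.1, 11.1 and 8.17 (log2 difference 2.36 ± 0.25 SE, limma adjusted p = 5.93e-09). Pde4d, a cAMP phosphodiesterase gene, was at 0, 0.158 and 0.883 and 2.25, 2.12 and 1.94 (log2 difference 1.76 ± 0.35 SE, limma adjusted p = 0.000289). For each of these 3 genes every lung library was above every thymus library, and 584 of the 598 genes called did not overlap. Rgs1 and Rgs2, which shorten G protein signals, went from 0.975, 0.631 and 1.41 to 4.91, 3.76 and 2.92 and from 1.39, 3.00 and 3.00 to 7.78, 8.23 and 6.03.

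Some immediate early genes rose in both subsets, and others rose more in CD244-positive cells. In CD244-negative cells, where the macrophage sum was 22.3 to 27.1 in the thymus and 24.2 to 31.5 in the lung, Junb was at 1.42 ± 0.663 in thymus and 15.5 ± 2.58 in lung (SD, n = 3). Its tissue difference did not pass a test of the difference between subsets (interaction -0.12 ± 0.36 SE, limma adjusted p = 0.936). Dusp1 was at 0.625 ± 0.195 in thymus and 7.09 ± 0.941 in lung, Tnfaip3 at 0.420 ± 0.212 in thymus and 10.9 ± 1.85 in lung and Crem at 0.945 ± 0.526 in thymus and 8.54 ± 1.51 in lung in CD244-negative cells, and none of the 3 passed the interaction test (limma adjusted p = 0.487, 0.741 and 0.94). Vps37b rose more in CD244-negative cells, to 26.0 ± 3.84 (interaction -1.20 ± 0.33 SE, limma adjusted p = 0.0202). The interaction of Vps37b was lost under 7 of 24 other settings, among them without thymus library 2 or lung library 3 in the CD244-positive set, or thymus library 3 or lung library 3 in the CD244-negative set (limma adjusted p up to 0.517). Fos, by contrast, was at 0 ± 0 in thymus and 0.544 ± 0.510 in lung in CD244-negative cells (interaction 3.37 ± 0.53 SE, limma adjusted p = 7.8e-06). Jun (interaction 2.21 ± 0.55 SE, limma adjusted p = 0.00699), Fosb (interaction 2.72 ± 0.52 SE, limma adjusted p = 0.000203), Atf3 (interaction 2.75 ± 0.52 SE, limma adjusted p = 0.000203), Egr1 (interaction 3.23 ± 0.54 SE, limma adjusted p = 2.41e-05) and Zfp36 (interaction 3.05 ± 0.49 SE, limma adjusted p = 9.69e-06) also rose more in CD244-positive cells. The interaction of Jun was lost under 2 of 24 other settings, among them without lung library 2 in the CD244-negative set (limma adjusted p up to 0.0719). The macrophage and MHC class II sums separated the 2 lung groups as these 6 genes did, and their part in it was not tested.

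**Figure D3:**
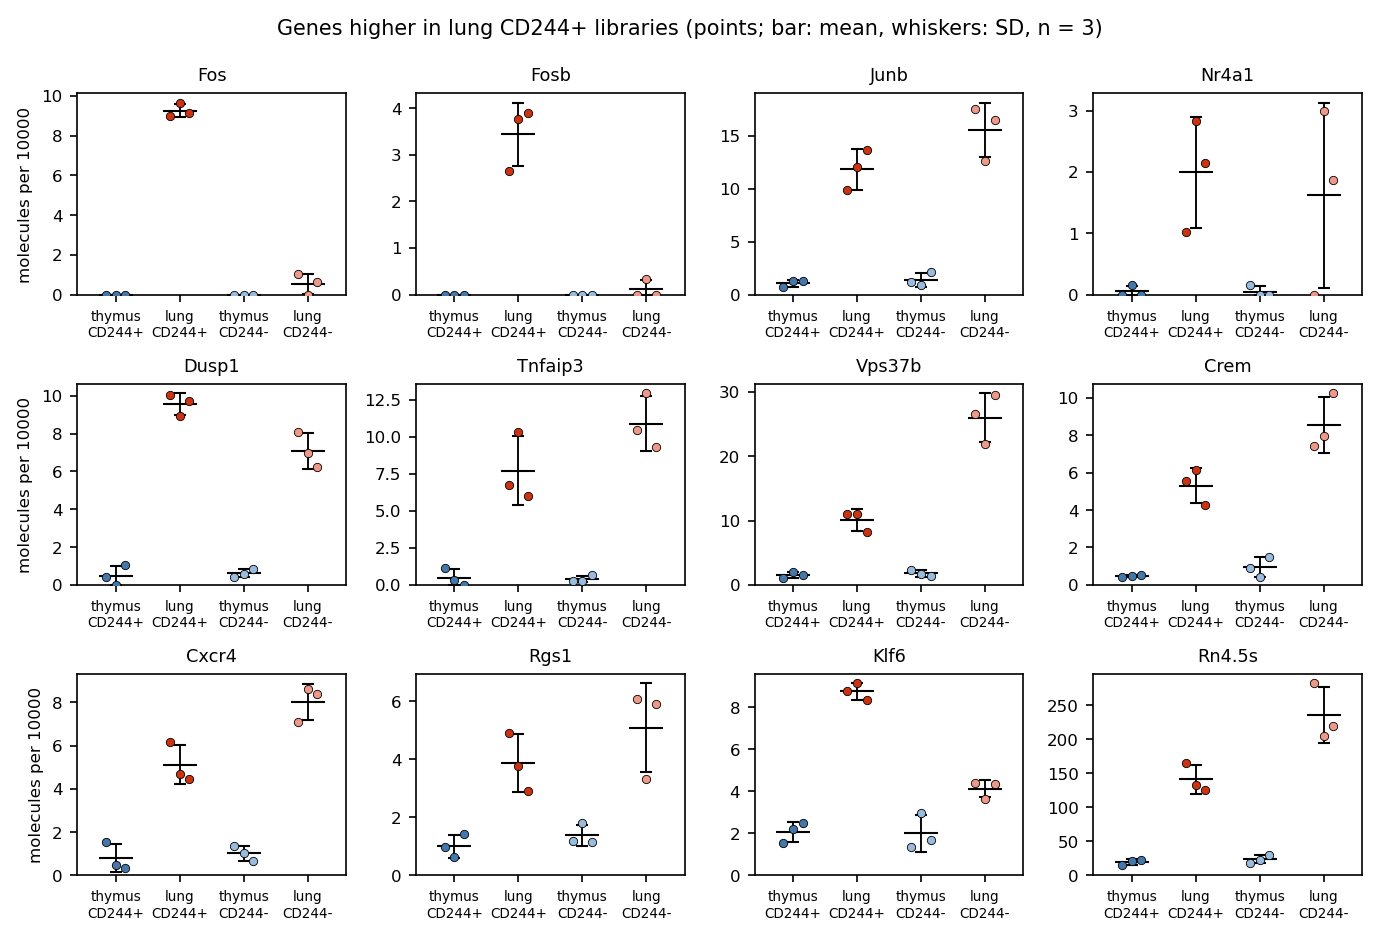
Level of 12 genes in each library, in molecules per 10000, by tissue and CD244 group. Points are libraries, bars are means and whiskers 1 SD (n = 3), ending at 0 where the SD is larger than the mean. Fos and Fosb are high in the lung CD244-positive group alone, whereas Junb, Dusp1, Tnfaip3, Crem, Cxcr4, Rgs1 and Rn4.5s are high in both lung groups and Vps37b is highest in the lung CD244-negative group.

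The gene with the smallest p encodes no protein. Rn4.5s, the symbol for a short noncoding rodent RNA, was at 14.97, 21.3 and 22.1 in the thymus and 164, 133 and 125 in the lung (log2 difference 2.83 ± 0.13 SE, limma adjusted p = 3.63e-18). It was at 23.7 ± 5.58 in thymus and 235 ± 41.4 in lung in CD244-negative cells (SD, n = 3), so both lung groups were high. Rodent genomes hold many near-copies of short RNAs of this kind, so its count is uncertain. H3f3b, which encodes the replacement histone H3.3, rose from 5.01, 6.31 and 5.83 to 13.7, 12.5 and 13.4 (limma adjusted p = 1.69e-05). P2ry10, a lysophospholipid receptor gene, rose from 1.39, 1.26 and 1.59 to 5.32, 6.59 and 4.67 (limma adjusted p = 1.76e-05). Emb, the gene for the adhesion protein embigin, had 0 in each thymus library and 1.64, 1.18 and 1.94 in the lung, at least 10.3-fold higher. The direction of Emb follows from the filter, since it reached the tested level through lung libraries only. These 3 genes also rose in CD244-negative cells, the largest of their adjusted p-values there being 1.89e-07 for H3f3b (limma).

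Genes of traffic and tissue retention moved in both directions. Of 8 chemokine receptor genes tested, 3 were higher and 1 lower, against 11.3% and 6.43% of all genes tested. Of these 8, 2 (Cx3cr1 and Ccr1) reached the tested level through lung libraries only, so their direction follows from the filter. Cxcr4, the receptor for CXCL12, was at 1.53, 0.473 and 0.353 in the thymus and 6.14, 4.70 and 4.47 in the lung (log2 difference 2.22 ± 0.32 SE, limma adjusted p = 1.9e-06), and it rose in CD244-negative cells too (1.02 ± 0.335 in thymus and 8.03 ± 0.836 in lung). Cxcr6, a receptor of resident lymphocytes and a sort marker, was lower in the lung (log2 difference -2.22 ± 0.48 SE, limma adjusted p = 0.00242), with most of its lung level in library 1. Cx3cr1, which marks circulating effector cells and many macrophages, was at 0, 0.158 and 0 and 0.614, 5.41 and 1.75 (log2 difference 2.16 ± 0.42 SE, limma adjusted p = 0.00018). Ccr1 had 0 in each thymus library and 0.819, 1.65 and 0.972 in the lung. Cx3cr1 and Ccr1 had 0 molecules in the lung CD244-negative libraries, where the macrophage sum was 24.2 to 31.5, and the part of the macrophage sum in their rise was not tested.

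S1pr1, the receptor that guides exit from lymphoid organs, was higher in the lung, at 0.139, 0.946 and 0.177 and 3.07, 1.88 and 1.56 (log2 difference 1.60 ± 0.35 SE, limma adjusted p = 0.000821). In CD244-negative cells it rose as well (log2 difference 1.78, limma adjusted p = 0.000657; interaction -0.17 ± 0.53 SE, limma adjusted p = 0.936). Itgae, which encodes the E-cadherin-binding integrin CD103, was lower, at 3.90, 2.52 and 1.59 and 0.205, 0.470 and 0.583 (log2 difference -1.74 ± 0.33 SE, limma adjusted p = 0.000147). Of 17 tissue residency genes tested, 6 were higher (Nr4a1, Nr4a2, Nr4a3, Rgs1, Rgs2 and Litaf) and 5 lower (Itgae, Inpp4b, Cxcr6, Znrf1 and Xcl1), and 3 reached the tested level through lung libraries only. The count of lower members was 3 without thymus library 1, 2 or 3 or lung library 3, and the counts were 3 to 7 and 1 to 6 over the other settings. Over all genes tested, 11.3% were higher and 6.43% lower. Of 19 egress and circulation genes, 6 were higher and 1 lower, and the higher count was 3 without thymus library 1 or 2 and 2 to 11 over the other settings. Vim, the intermediate filament gene of that list, was at 6.96, 6.62 and 5.30 and 15.96, 19.0 and 18.1 (log2 difference 1.43 ± 0.18 SE, limma adjusted p = 1.56e-07). In CD244-negative cells Vim went the opposite way, from 1.36 ± 0.625 to 0.437 ± 0.197 (log2 difference -0.95, limma adjusted p = 0.0201; interaction 2.38 ± 0.39 SE, limma adjusted p = 1.38e-05). Macrophages express Vim strongly, and the part of the macrophage sum in its rise was not tested.

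Macrophage and MHC class II genes headed the list of differences. Of 25 macrophage markers tested of 35 listed, 24 were higher in the lung, with a median log2 difference of 2.84. Of the 25, 19 reached the tested level through lung libraries only, so their direction follows from the filter. Apoe, an apolipoprotein gene, had 0 in each thymus library and 13.7, 31.5 and 23.9 in the lung, at least 145-fold higher (log2 difference 5.48 ± 0.29 SE, limma adjusted p = 2.92e-16). The complement genes C1qa, C1qb and C1qc had 0 molecules in the thymus. They were at 6.14, 11.8 and 7.58, at 5.73, 11.8 and 10.7 and at 5.73, 15.1 and 9.53 in the lung libraries. Mrc1, the mannose receptor CD206 of tissue macrophages, had 0 in each thymus library and 8.19, 12.2 and 8.17 in the lung. Csf1r, the growth factor receptor that macrophages need, had 0 in each thymus library and 3.68, 10.1 and 4.67 in the lung. Library 2 was highest for each of these 6 genes. Chil3, an alveolar macrophage gene, had another order, with 5.94, 1.41 and 15.4. Marco, Ear1 and Fabp4, further alveolar macrophage genes, did not reach the tested level.

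Antigen presentation genes of class II followed library 3. Cd74, the invariant chain, was at 0.139, 0 and 0 in the thymus and 17.2, 28.2 and 52.3 in the lung (log2 difference 5.79 ± 0.30 SE, limma adjusted p = 1.91e-16). H2-Aa, a class II alpha chain, had 0 in each thymus library and 13.5, 18.2 and 32.8 in the lung, at least 139.7-fold higher. H2-Ab1 had 0 in each thymus library and 8.60, 9.88 and 21.0 in the lung, at least 86.0-fold higher. In lung CD244-negative libraries the mean of each of these 3 was 0.104 to 0.112. All 5 class II genes tested were higher, and all of them reached the tested level through lung libraries only, so their direction follows from the filter. With edgeR on the 4 libraries whose values came out as whole molecules (thymus 2 and 3, lung 1 and 3), Cd74 and H2-Aa did not pass (adjusted p = 0.245 and 0.107).

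Inflammatory genes of myeloid cells were also in the lung CD244-positive libraries. Cxcl2, a neutrophil chemokine gene, had 0 in each thymus library and 6.34, 7.53 and 8.55 in the lung, at least 47.9-fold higher (limma adjusted p = 2.04e-12). Il1b, the gene for interleukin 1 beta, had 0 in each thymus library and 8.60, 4.47 and 5.25 in the lung, at least 39.4-fold higher (limma adjusted p = 5.75e-11). Ccl2, a monocyte chemokine gene, had 0 in each thymus library and 4.71, 3.29 and 3.69 in the lung, at least 25.1-fold higher. Of 10 monocyte and neutrophil markers tested, 8 were higher, the others being Ccl6, Ccl9, Nlrp3, Fn1 and Plac8. The monocyte markers Ly6c2 and Ccr2 did not pass the test, and the difference of Ly6c2 was below 0. The neutrophil genes S100a8 and S100a9 had 0 molecules. Of the 10, 8 reached the tested level through lung libraries only, so their direction follows from the filter. Plac8, which some T cells also express, was the 1 of the 8 that rose in CD244-negative cells as well (0.747 ± 0.654 in thymus and 3.79 ± 0.987 in lung; log2 difference 1.88, limma adjusted p = 0.000182). Tyrobp and Fcgr3, the signalling adaptor DAP12 and an Fc receptor shared by NK cells and macrophages, went from 0.279, 0.631 and 0.177 to 3.48, 5.88 and 4.08 and from 0.279, 0 and 0 to 3.68, 3.06 and 4.28. Both rose more than in CD244-negative cells (interaction 2.51 ± 0.53 SE, limma adjusted p = 0.00104 for Tyrobp, interaction 2.96 ± 0.52 SE, limma adjusted p = 4.72e-05 for Fcgr3), and the macrophage sums separated the 2 lung groups as well. Lung and thymus levels did not overlap for any of the 6 genes with values in this paragraph, as for 584 of the 598 called. Fcgr3 reached the tested level through lung libraries only, so its direction follows from the filter.

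Ribosomal protein genes were lower in the lung libraries. Of 84 tested, 73 were lower, the median log2 difference was -0.73, and all 84 had a difference below 0. Among them 86.9% were lower, against 6.43% of all genes tested. Their summed level was 2914, 2769 and 2751 in the thymus and 1751, 1458 and 1571 in the lung libraries. Rpl32, of the large subunit, was at 56.7, 61.7 and 60.3 and 24.8, 18.3 and 20.8 (log2 difference -1.47 ± 0.12 SE, limma adjusted p = 3.38e-11). Rpl13 was at 70.3, 64.4 and 57.3 and 26.6, 23.8 and 24.9 (log2 difference -1.33 ± 0.12 SE, limma adjusted p = 7.64e-11). Rps27, of the small subunit, was at 129, 122 and 134 and 76.3, 59.4 and 48.4 (log2 difference -1.08 ± 0.11 SE, limma adjusted p = 2.48e-09). In each of the 3 every lung library lay below every thymus library, as in 77 of the 84. Over all genes tested, 31.3% did not overlap in either direction.

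The fall was also seen in CD244-negative cells, where 46 of 84 were lower with a median of -0.47, and where 3.3% of 4577 genes tested were lower and 3.58% higher. Rps27 and Rpl35 were lower still in lung CD244-negative cells, at 32.5 ± 1.66 and 13.8 ± 1.42 (interaction 0.92 ± 0.15 SE, limma adjusted p = 8.91e-06; interaction 0.72 ± 0.19 SE, limma adjusted p = 0.0143). The interaction of Rpl35 was lost under 4 of 24 other settings, among them without lung library 1 or 3 in the CD244-positive set, or thymus library 3 in the CD244-negative set (limma adjusted p up to 0.0867). Rpl13a fell more in CD244-positive cells (interaction -0.69 ± 0.15 SE, limma adjusted p = 0.0017), a direction that turned on the scale set by the T cell receptor genes (interaction 0.06, limma adjusted p = 0.885). Many ribosomal protein genes have near-identical pseudogenes, and 38.2% of their nonzero values did not come out as whole molecules, a share that was 5.42% over the genes tested, so single members are uncertain. The count of lower members was 29 after quantile normalization and 22 on a scale set by the T cell receptor genes, with medians of -0.26 and -0.30, and 24 without the trend and robust options of limma.

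Of 11 iNKT lineage regulators tested, 3 were lower and 1 higher, against 6.43% and 11.3% of all genes tested. Id2, the inhibitor of E proteins that mature innate-like T cells need, was at 18.8, 18.3 and 20.3 in the thymus and 5.12, 3.998 and 4.47 in the lung (log2 difference -1.97 ± 0.18 SE, limma adjusted p = 2.74e-10). It fell in CD244-negative cells too (20.4 ± 1.98 in thymus and 5.67 ± 0.989 in lung; log2 difference -1.77, limma adjusted p = 3.02e-11). Gata3, a regulator of T helper type 2 genes, was at 3.06, 3.94 and 3.18 and 1.84, 0.470 and 1.17 (log2 difference -1.31 ± 0.32 SE, limma adjusted p = 0.00236), and this fall was larger than in CD244-negative cells (interaction -1.49 ± 0.42 SE, limma adjusted p = 0.0259). The interaction of Gata3 was lost under 6 of 24 other settings, among them without thymus library 2 or lung library 2 in the CD244-positive set, or thymus library 3 or lung library 1 in the CD244-negative set (limma adjusted p up to 0.199). Runx1, a Runt-domain factor gene, was the 1 higher member, at 0.418, 0.158 and 0.353 and 2.87, 4.82 and 5.64 (log2 difference 2.58 ± 0.32 SE, limma adjusted p = 1.09e-07). Runx1 reached the tested level through lung libraries only, so its direction follows from the filter. Zbtb16, which encodes PLZF, was at 0.557, 0.788 and 0.707 and 0.205, 0.235 and 0.194 (limma adjusted p = 0.181), and Tbx21, which encodes T-bet, was at 2.09, 1.73 and 1.77 and 1.23, 1.65 and 0.194 (limma adjusted p = 0.13).

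Some genes of the NK receptor complex on chromosome 6 fell. Of 11 Klr genes tested, 6 were lower, against 6.43% of all genes tested, and the others did not pass. Klrb1c fell between the tissues (log2 difference -1.83 ± 0.24 SE, limma adjusted p = 2.6e-07) although NK1.1 was a sort marker in both. Klrd1, which encodes CD94, was at 8.22, 6.62 and 6.18 and 2.46, 2.82 and 2.14 (log2 difference -1.33 ± 0.24 SE, limma adjusted p = 7.67e-05). Klrk1, which encodes NKG2D, was at 6.41, 6.15 and 4.77 and 2.66, 2.82 and 2.92 (log2 difference -0.92 ± 0.24 SE, limma adjusted p = 0.00579), a call lost without thymus library 1 (limma adjusted p = 0.0557). The Klrk1 call was also lost on the scale set by the T cell receptor genes, with thinned molecules and in edgeR on 4 libraries. Of 5 Ly49 genes tested, which encode inhibitory and activating receptors for MHC class I, 3 were lower. Klra5 was at 8.75, 7.70 and 5.65 and 3.07, 2.82 and 1.23 (log2 difference -1.50 ± 0.27 SE, limma adjusted p = 7.26e-05), Klra9 at 4.39, 5.36 and 3.41 and 1.48, 1.65 and 0.875 (log2 difference -1.42 ± 0.29 SE, limma adjusted p = 0.000328), and Klra3 at 2.40, 2.18 and 1.47 and 0.461, 0.588 and 0.292 (log2 difference -1.40 ± 0.32 SE, limma adjusted p = 0.00137). For all 6 of these receptor genes each lung library was below each thymus library, and 584 of the 598 genes called did not overlap. The Ly49 genes are close copies of each other, so the split between them is uncertain. Of 14 other NK receptor and adaptor genes, 5 were lower, including Cd7 and Hcst (DAP10), and 2 higher (Tyrobp and Fcgr3). Over all genes tested, 11.3% were higher.

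Cytokine receptor and survival genes split. Il7r, the interleukin 7 receptor that maintains resting T cells, was at 12.8, 11.03 and 16.6 and 5.73, 5.41 and 2.14 (log2 difference -1.59 ± 0.25 SE, limma adjusted p = 7.61e-06). Bcl2, a survival gene downstream of interleukin 7, was at 4.18, 3.31 and 2.83 and 1.43, 1.88 and 0.778 (log2 difference -1.11 ± 0.30 SE, limma adjusted p = 0.00705), a call lost without thymus library 1 (limma adjusted p = 0.0687). The Bcl2 call was also lost on the scale set by the T cell receptor genes. Mcl1, another survival gene, went the other way, from 1.81, 2.68 and 1.77 to 4.71, 5.17 and 6.42 (log2 difference 1.21 ± 0.26 SE, limma adjusted p = 0.000755). Ifngr1, the interferon gamma receptor, was at 7.38, 5.71 and 6.01 and 10.2, 11.8 and 8.75 (log2 difference 0.64 ± 0.20 SE, limma adjusted p = 0.0175), a call lost without thymus library 2 or 3 or lung library 2 (limma adjusted p = 0.0754 to 0.0967). The Ifngr1 call was also lost on the totals as deposited, with quantile normalization and without the trend and robust options of limma. The rise of Ifngr1 was smaller than in CD244-negative cells (interaction -1.18 ± 0.28 SE, limma adjusted p = 0.0051). The interaction of Ifngr1 was lost under 2 of 24 other settings, the receptor scale and thinned molecules (limma adjusted p up to 0.446). Of 18 interferon-stimulated genes tested, 4 were lower, against 6.43% of all genes tested. Ifi203 was at 4.60, 4.41 and 4.06 and 1.94, 1.18 and 0.778 (limma adjusted p = 0.000218), Gbp7 at 4.32, 4.77 and 2.296 and 0.614, 0.235 and 1.75 (limma adjusted p = 0.000249), and Ifit3 at 0.836, 1.42 and 1.77 and 0, 0 and 0.194 (limma adjusted p = 0.000629). The call for Ifi47, the fourth, was lost without thymus library 1 or 3 or lung library 2 (limma adjusted p = 0.0685 to 0.163). Lung and thymus levels did not overlap for the genes of this paragraph, as for 584 of the 598 called. Ifit3 reached the tested level through thymus libraries only, so its direction follows from the filter.

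**Figure D4:**
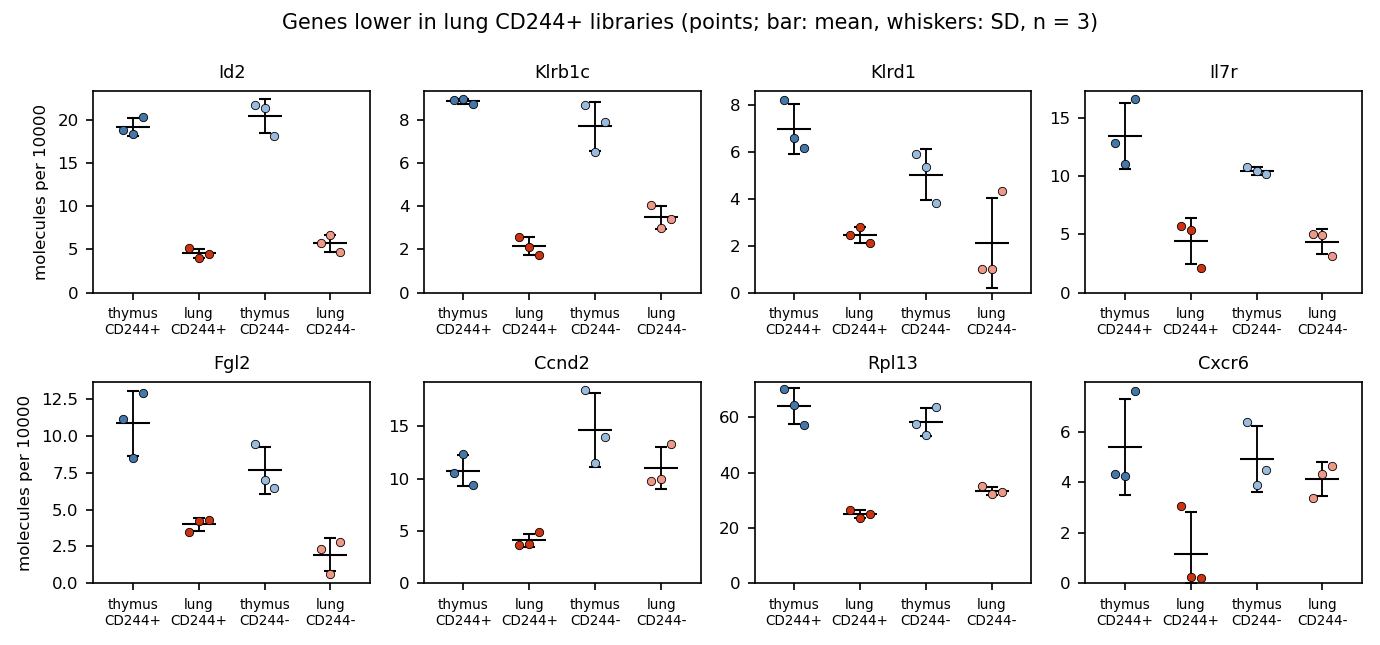
Level of 8 genes that were lower in lung than in thymus CD244-positive libraries, in molecules per 10000, for all 4 groups. Points are libraries, bars are means and whiskers 1 SD (n = 3), ending at 0 where the SD is larger than the mean. Id2, Klrb1c, Klrd1, Il7r, Fgl2 and Rpl13 are lower in both lung groups, and Cxcr6 is near 0 in 2 of the 3 lung CD244-positive libraries.

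Effector genes showed no common direction. Lamp1, a lysosomal membrane gene, was at 1.11, 0.158 and 1.06 in the thymus and 5.53, 5.41 and 6.61 in the lung (log2 difference 2.42 ± 0.32 SE, limma adjusted p = 3.84e-07), more than in CD244-negative cells (interaction 1.67 ± 0.50 SE, limma adjusted p = 0.0378). The interaction of Lamp1 was lost under 10 of 24 other settings, among them without thymus library 2 or lung library 1, 2 or 3 in the CD244-positive set, or thymus library 1 or 3 or lung library 2 in the CD244-negative set (limma adjusted p up to 0.423). The macrophage sums of the 2 lung groups differed too (macrophage sums 176 to 283 and 24.2 to 31.5), and their part was not tested. Serpinb9, an inhibitor of granzyme B, was at 0.836, 1.58 and 1.94 and 5.73, 5.88 and 3.50 (log2 difference 1.52 ± 0.29 SE, limma adjusted p = 0.000172), and it rose in CD244-negative cells too (log2 difference 1.71, limma adjusted p = 0.000102). Ctsw, a cathepsin of cytotoxic lymphocytes, was at 5.29, 4.14 and 4.06 and 1.84, 0.706 and 1.56 (log2 difference -1.47 ± 0.29 SE, limma adjusted p = 0.000278). Of 12 cytotoxic genes tested, 3 were higher and 4 lower, against 11.3% and 6.43% of all genes tested. The lower count was 1 without thymus library 1, 2 or 3 or lung library 3. Gzmb, granzyme B, was at 8.64, 8.04 and 7.42 and 4.503, 7.29 and 3.31 (log2 difference -0.69 ± 0.23 SE, limma adjusted p = 0.036), a call lost without thymus library 1, 2 or 3 or lung library 1 or 3 (limma adjusted p = 0.0776 to 0.22). Gzma, granzyme A, was at 5.33, 5.67 and 4.24 and 10.6, 14.3 and 2.14, and Ccl5, a chemokine gene of memory lymphocytes, was at 31.8, 35.5 and 34.9 and 46.9, 63.1 and 21.6. Neither passed the test (limma adjusted p = 0.77 and 0.812), and lung library 3 was low for both while libraries 1 and 2 were above every thymus library. Ltb, the lymphotoxin beta gene, was at 2.09, 2.05 and 2.47 and 0.409, 0.941 and 0.389 (log2 difference -1.36 ± 0.32 SE, limma adjusted p = 0.00168).

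Several further T cell genes fell. Of 17 T cell receptor complex and co-receptor genes tested, 4 were lower, against 6.43% of all genes tested. The median log2 difference of the 17 was -0.47, which was 0.06 in edgeR on 4 libraries and -0.12 without lung library 2. The lower count was 2 without thymus library 1. Ptprcap, a CD45-associated protein gene, was at 5.29, 8.35 and 5.12 and 3.07, 2.12 and 1.56 (log2 difference -1.30 ± 0.27 SE, limma adjusted p = 0.000386), and Cd3g, a CD3 chain gene, at 5.01, 5.202 and 4.06 and 3.07, 1.18 and 1.56 (log2 difference -1.18 ± 0.29 SE, limma adjusted p = 0.00253). The others were Cd3d, lost without thymus library 1 (limma adjusted p = 0.0791), and Cd3e, lost without thymus library 1, 2 or 3 or lung library 2 or 3 (limma adjusted p = 0.0571 to 0.0996). Fgl2, a fibrinogen-like gene of T and NK cells, was at 11.1, 8.51 and 12.9 and 3.48, 4.23 and 4.28 (log2 difference -1.32 ± 0.21 SE, limma adjusted p = 1.42e-05). Ms4a4b, a membrane protein gene of T cells, was at 13.8, 13.1 and 13.01 and 6.34, 6.59 and 5.93 (log2 difference -1.02 ± 0.18 SE, limma adjusted p = 5.5e-05). On the scale set by the T cell receptor genes, the calls for Cd3g, Cd3d, Cd3e and Ms4a4b were lost. With edgeR on 4 libraries, those for Cd3g, Cd3d and Cd3e were lost. All 3 lung libraries lay below all 3 thymus libraries for Ptprcap, Cd3g, Fgl2 and Ms4a4b, and 584 of the 598 genes called did not overlap.

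Cell cycle genes were mixed in kind. Ccnd2, the cyclin D2 gene that acts at entry into the cycle, was at 10.6, 12.4 and 9.36 and 3.68, 3.76 and 4.86 (log2 difference -1.29 ± 0.21 SE, limma adjusted p = 1.52e-05) and fell more than in CD244-negative cells (interaction -0.91 ± 0.28 SE, limma adjusted p = 0.0439). The interaction of Ccnd2 was lost under 16 of 24 other settings, among them without thymus library 1 or 2 or lung library 1 or 2 in the CD244-positive set, or thymus library 2 or 3 or lung library 3 in the CD244-negative set (limma adjusted p up to 0.749). Cdkn1a, the inhibitor p21, had 0 in each thymus library and 1.64, 1.65 and 3.79 in the lung, at least 15.4-fold higher. Top2a, a topoisomerase of dividing cells, had 0 in each thymus library and 1.43, 2.12 and 1.56 in the lung, at least 10.7-fold higher. Both differed between subsets (interaction 2.19 ± 0.53 SE, limma adjusted p = 0.00514 for Cdkn1a, interaction 2.13 ± 0.52 SE, limma adjusted p = 0.00547 for Top2a), as did the sums of the 2 lung groups (macrophage sums 176 to 283 and 24.2 to 31.5), whose part in it was not tested. Of 13 cell cycle genes tested, 6 were higher and 1 lower, against 11.3% and 6.43% of all genes tested. Of the 13, 3 reached the tested level through lung libraries only, Cdkn1a and Top2a among them, so their direction follows from the filter. Of 23 heat shock and chaperone genes, 3 were higher, a share near the 11.3% of all genes: Hspa1a and Hspa1b, which are near-identical copies, and Hsp90aa1, lost without thymus library 1, 2 or 3 or lung library 1 (limma adjusted p = 0.0588 to 0.229). Hspa1b had 0 in each thymus library and 2.05, 1.18 and 3.08 in the lung, and Hspa1a had 0 in each thymus library and 2.05, 1.88 and 1.52 in the lung. Both reached the tested level through lung libraries only, so their direction follows from the filter.

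In the test of the difference between subsets over all 12 libraries, 159 of 4577 genes rose more, or fell less, with tissue in CD244-positive than in CD244-negative cells (3.47%) and 35 did the opposite (0.765%). Of the 381 genes higher in lung CD244-positive cells, 149 were among the 159, and of the 217 lower genes 16 were among the 35. Macrophage markers supplied 22 of the 159, of 26 tested, and MHC class II genes 5, of 5 tested. Immediate early genes supplied 8, of 26 tested. In the tissue comparison, 19 of 25, 5 of 5 and 11 of 23 members of these lists reached the tested level through lung libraries only. For a member with 0 molecules outside the lung CD244-positive libraries, a higher interaction follows from the filter. The CD244-negative tissue comparison alone called 164 genes higher and 151 lower. It shared 60 higher genes with the CD244-positive comparison, 15.7% of 381 and 36.6% of 164, and 80 lower genes, 36.9% of 217 and 53.0% of 151. No library enters both tissue comparisons. The lung CD244-negative libraries were shallower, at 29696 to 32196 molecules, and with molecules thinned to the shallowest library the interaction counts were 100 and 18.

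**Figure D5:**
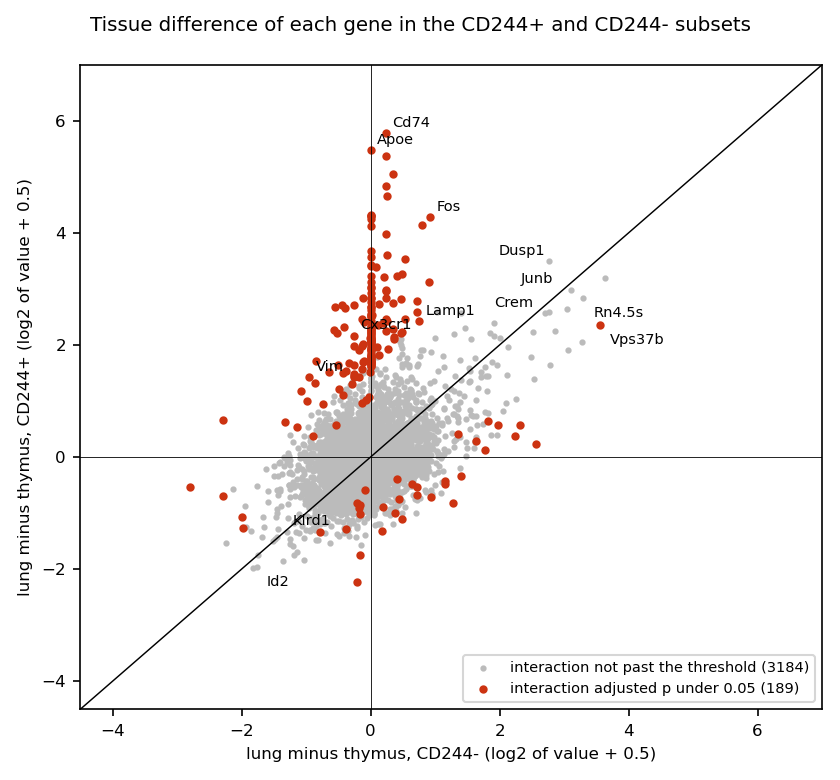
Tissue difference of each of 3373 genes, lung minus thymus on the scale of log2(value + 0.5), in CD244-negative (horizontal) and CD244-positive (vertical) cells. The line marks equal differences and red points are the 189 of these genes that passed the interaction test; Apoe, Cd74 and Fos lie far above the line, Junb, Dusp1, Crem, Rn4.5s and Id2 lie near it, and Vps37b lies below it.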

How the data were processed

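RNA was measured in 12 libraries of 100 sorted cells. Per the labels, the primer for reverse transcription carried a molecular barcode and a run of T bases, cDNA was amplified by PCR after template switching, and each tube received spike-in RNA. Per the submitters' processing notes, the tools used include STAR (version not given in the sources used here), with the mm10 build. The deposited table holds a normalized signal per gene made by the authors, with 24781 gene symbols. It has 0 spike-in rows, so spike-in scaling was not used here. Within a library 94.3% to 95.9% of nonzero values were whole multiples of 1 value (tolerance 1e-06), taken as 1 molecule. In 3 columns (library 1 of thymus and library 2 of lung CD244-positive cells, and library 2 of thymus CD244-negative cells) low values included fractions of a molecule and failed a check for whole steps, so their molecules are approximate. Each column was scaled to a total of 10000.

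Lung and thymus CD244-positive libraries were compared with limma 3.58.1 (R 4.3.3, trend and robust) on log2(value + 0.5) for genes above 0.5 in at least 3 of the 6 libraries. Fold changes on this scale understate the change of low genes. Tests were two-sided, and the Benjamini-Hochberg adjustment ran over all genes tested with a threshold of 0.05. The difference between subsets used all 12 libraries in 1 model, with genes above 0.5 in at least 3 of the 12. The spread was estimated from the libraries compared. Intervals are 95%.

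Members and gene lists were chosen with earlier results of these data known. Genes were named by rule (the 15 higher and 15 lower genes of smallest p without overlap, the sort genes, up to 6 members of a list, 5 per direction of the interaction), and others to complete a count. On simulated data for this comparison with 3458 genes, 30% of 2-fold and 77% of 4-fold changes were recovered, and 9 unchanged genes were called. The simulation gave lung and thymus libraries 1 common dispersion, although the lung libraries differed more. It changed only genes within a range of levels, and no fold above 4 was simulated. Alternatives were pseudocounts of 0.25 and 2, filters, other scalings, thinning, sample weights, a replicate block and each library left out. Settings chosen after seeing the data were edgeR 4.0.16 (quasi-likelihood, on recovered molecules of the 4 libraries with checkable whole steps) and scaling to the T cell receptor genes. That scale used the sum of the whole list of T cell receptor complex and co-receptor genes. Gene positions came from GENCODE M21 (mm10), in which 3336 of 3373 tested symbols matched 1 gene, and promoters from RefSeq.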

Additional observations from a re-analysis of the deposited data

Results flagged for a closer look

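The lung minus thymus difference was tested between the CD244-positive and CD244-negative subsets over all 12 libraries, and the 64 genes named here that passed (limma adjusted p under 0.05) are listed with the interaction on the log2 scale ± SE. No cause was tested for any of them. For a gene with 0 molecules outside the lung CD244-positive libraries, the direction of the interaction follows from the filter. Among macrophage, MHC class II and monocyte genes the difference was higher in CD244-positive cells, with Apoe 5.48 ± 0.51, C1qa 4.12 ± 0.52, C1qb 4.25 ± 0.52, C1qc 4.31 ± 0.53, Ccl2 3.12 ± 0.51 and Ccl6 2.59 ± 0.56. Others were Ccl9 2.67 ± 0.52, Cd14 4.31 ± 0.53, Cd74 5.55 ± 0.52, Chil3 3.01 ± 0.63, Csf1r 3.37 ± 0.54 and Cst3 3.30 ± 0.45. The remaining values included Cxcl2 3.75 ± 0.52, H2-Aa 5.13 ± 0.52, H2-Ab1 4.41 ± 0.53, H2-DMa 1.93 ± 0.53, H2-Eb1 4.60 ± 0.52 and Il1b 3.67 ± 0.52. Then came Mrc1 4.30 ± 0.51, Naaa 1.92 ± 0.51, Nlrp3 2.12 ± 0.50, Pf4 3.41 ± 0.53 and Selenop 4.71 ± 0.54. The highest adjusted p among them was 0.0171, for H2-DMa (limma). Immediate early genes with a higher difference in CD244-positive cells were Atf3 2.75 ± 0.52, Egr1 3.23 ± 0.54, Fos 3.37 ± 0.53, Fosb 2.72 ± 0.52, Jun 2.21 ± 0.55 and Zfp36 3.05 ± 0.49. The highest adjusted p among them was 0.00699, for Jun (limma). Other genes with a higher difference in CD244-positive cells were Ccr1 1.69 ± 0.49, Cd81 2.60 ± 0.53, Cdkn1a 2.19 ± 0.53, Cx3cr1 2.43 ± 0.57, Fcgr3 2.96 ± 0.52 and Hspa1a 1.73 ± 0.54. Others were Itgam 1.73 ± 0.50, Lamp1 1.67 ± 0.50, Nrp1 1.89 ± 0.52, Rpl35 0.72 ± 0.19, Rps27 0.92 ± 0.15 and Socs3 2.40 ± 0.52. The remaining values included Top2a 2.13 ± 0.52, Tuba1b 1.75 ± 0.48, Tyrobp 2.51 ± 0.53 and Vim 2.38 ± 0.39. The highest adjusted p among them was 0.0477, for Hspa1a (limma). A lower difference in CD244-positive cells was found for Bcl2 -1.60 ± 0.41, Bcl2l11 -1.42 ± 0.39, Ccl5 -2.34 ± 0.45, Ccnd2 -0.91 ± 0.28, Cd6 -1.65 ± 0.49 and Cxcr6 -2.01 ± 0.58. Others were D17H6S56E-5 -1.40 ± 0.22, Gata3 -1.49 ± 0.42, Gbp7 -1.59 ± 0.45, Gimap3 -1.39 ± 0.31, Gimap6 -2.10 ± 0.39 and Ifngr1 -1.18 ± 0.28. The remaining values included Ly6c2 -1.58 ± 0.28, Ly6e -1.09 ± 0.26, Ms4a4b -0.86 ± 0.26, Pabpc1 -0.81 ± 0.15, Rpl13 -0.54 ± 0.16 and Rpl13a -0.69 ± 0.15. Then came Vps37b -1.20 ± 0.33. The highest adjusted p among them was 0.0487, for Cxcr6 (limma). Of the 64 genes, 33 passed under every other setting in which they were tested, which was 24 settings, or 23 for some such as Cdkn1a. The other 31 were lost under at least 1 setting and 20 of these on leaving out 1 library. The number of settings that ended the call was 16 for Ccnd2, 15 for Hspa1a, 14 for Cxcr6, 13 for Ms4a4b, 12 for Rpl13, 11 for Cd6, 10 for Lamp1, 10 for Gbp7, 9 for Ccr1, 8 for Itgam, 8 for Bcl2l11, 7 for Vps37b, 6 for Gata3, 6 for Nrp1 and 6 for Tuba1b, with fewer than 6 for the others.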

How the results depend on the processing

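Of the 381 higher and 217 lower genes, the counts were 154 higher with a filter of 2 per 10000 and 160 higher and 97 lower with edgeR on 4 libraries, where fewer genes or samples entered. Lower genes numbered 505 on the totals as deposited, 66 on a scale set by the T cell receptor genes and 121 without the trend and robust options of limma. Those scales moved the median of all genes from 0.01 to -0.28 and 0.29, quantile normalization moved it to -0.11 and edgeR to 0.12. Higher genes made up 63.7% of calls in the reported fit, 34.5% on deposited totals, 88.9% on the receptor scale, 45.4% with the stricter filter and 62.3% with edgeR. Leaving out 1 library gave 294 to 362 higher and 147 to 237 lower genes. For the interaction, the higher count was 66 with the stricter filter, 395 on the receptor scale and 100 with thinned molecules. The lower count was 16 with no filter, 21 with median of ratios, 3 on the receptor scale and 18 with thinned molecules. Leaving out 1 library gave 118 to 171 higher and 16 to 58 lower interaction genes, the most lower ones without lung CD244-positive library 1. Deviations of same-numbered lung and thymus libraries from their group means correlated at -0.0178, 0.000978 and -0.00767. This cannot decide whether the numbers pair the libraries, because thymus libraries differed by little more than counting error (chi-square per degree of freedom 1.10 to 1.15). With a replicate block the counts were 398 and 251, and 154 and 34 for the interaction. Directions turned for Pabpc1 between tissues, to 0.10 with quantile normalization and 0.039 on the receptor scale, and for Rpl13 and Rpl13a in the interaction, to 0.20 and 0.057 on the receptor scale; the cause was not tested. Of 147 named genes called between tissues, 100 passed under all settings run. Losses under settings other than a library left out are given above for some genes only. Further calls lost with edgeR on 4 libraries were those for Cxcr6, Gata3, Ctsw and Cd7, among others. Depth limits genes under 3 molecules in a library, and the lung CD244-negative libraries are the shallowest.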
